A study of Mus musculus with 8 samples.

Results

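The subunits of the AMPA and kainate receptors were followed across the cell types of the mouse hippocampus. All 4 AMPA subunit genes (Gria1 to Gria4) and all 5 kainate subunit genes (Grik1 to Grik5) were chosen by name, 9 of 32285 genes in the RNA matrices, and each was found in all 4 libraries. Wild-type C57BL/6J dams, 8 weeks old, received a diet with folic acid at 2 mg/kg (MF) or 20 mg/kg (HF) from 2 weeks before mating until the end of lactation. Hippocampal nuclei of their male pups, wild type and 21 days old, were profiled for RNA and open chromatin in the same nucleus, with 2 libraries a diet (MF1, MF2, HF1 and HF2). The study calls the libraries of a diet biological replicates, and how many pups or litters a library held was not stated. P-values between diets measure the spread between these libraries. Those between cell types measure how far the difference within a library varied over them.

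Glutamate released at an excitatory synapse opens AMPA receptors, tetramers of the subunits GluA1 to GluA4 that carry most of the fast current. GluA2, the product of Gria2, is edited in its RNA and makes a receptor nearly closed to calcium, so receptors that lack it pass calcium. Kainate receptors are tetramers as well. The low-affinity subunits GluK1 to GluK3 (Grik1 to Grik3) form channels on their own, while the high-affinity subunits GluK4 and GluK5 (Grik4 and Grik5) need one of the former. In the hippocampus they are best known at the mossy fibre synapse, where granule cells of the dentate gyrus contact CA3 pyramidal neurons, and in interneurons.

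Of 14297 deposited nuclei, 11518 passed the filters, 2249 to 3473 a library, with a median of 6655 UMIs, the counted RNA molecules, and 20151562 to 29243072 UMIs a library in kept nuclei. Library pairs shared 8 to 20 of the barcodes that were kept. Between 14.3 and 16.3% of the nuclei of a library had a doublet score over 0.05 (Scrublet), and they were kept except where stated. Clusters were named from marker lists that hold neither the 9 subunit genes nor their partners, and both sets were also kept out of the genes used for clustering. Grik4 is often used to find CA3 neurons, and its level in nuclei chosen with it would be circular. Here CA3 was found without it, although the clusters were still drawn from the RNA of the same nuclei. The 13 named classes were CA1 pyramidal neurons (CA1, 825 nuclei), CA3 pyramidal neurons (CA3, 504), mature (DG-M, 1878) and immature (DG-i, 913) dentate granule neurons, interneurons of medial (INH-MGE, 252) and caudal (INH-CGE, 175) ganglionic eminence type, Cajal-Retzius cells (CR, 132), astrocytes (AST, 1297), oligodendrocyte progenitors (OPC, 557), a cluster led by Bmp4 and Enpp6 that carried OPC and ODC markers (OPC-Bmp4, 361), oligodendrocytes (ODC, 749), microglia (MG, 692) and vascular cells (VASC, 178). Each name stands for nuclei that are like the type by their markers. The nuclei of all clusters named excitatory are together called EXC (4182 nuclei) and those of clusters named inhibitory INH (533), both with nuclei of no named subtype. Another 2837 nuclei (24.6% of those kept) are in no class, 1435 in 5 clusters that could not be named from the markers and 1402 in clusters or subclusters with a median doublet score over 0.05. Some may be neurons, so EXC and INH need not hold every neuron, and orders of level below are among the 13 named classes unless an unnamed cluster is given. All markers of AST, ODC, MG and VASC were highest in their own class, as were 8 of 12 for CA1, 9 of 14 for CA3, 7 of 13 for DG-M and 12 of 13 for DG-i, with the smallest shares in INH-CGE (6 of 12) and OPC-Bmp4 (6 of 16 OPC markers). In OPC-Bmp4 the 16 OPC markers summed to 9708 to 11884 CPM over the libraries and the 14 ODC markers to 11338 to 14080.0, so it is called by its leading gene and entered no test.

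Free RNA and doublets can put neuronal RNA into other nuclei, and 9 neuronal reference genes (Slc17a7, Rbfox3, Snap25, Syt1, Camk2a, Nrgn, Arpp21, Neurod2 and Snhg11) were read as a gauge of it. Their median level was 11.6% of the EXC level in MG, 12.6% in AST, 14% in OPC, 14.9% in OPC-Bmp4 and 20.7% in ODC, and none of the 9 was at 0 in any class. In VASC it reached 67.6%, and its single genes ranged from 42.5 to 88.1%. Subunit levels in VASC are therefore drawn but not described.

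Promoter sequences were given for 6 of the 9 genes, Gria2, Gria4, Grik2, Grik3, Grik4 and Grik5. The 250 bases before the start of Grik3, Gria4 and Gria2 are printed. Grik3 and Gria4 were chosen for the widest gaps in accessibility between AST and OPC of all subunits. Gria2 was chosen because it was open in neurons, AST and OPC, although at differing levels. Grik3 is read at chr4:125490446-125490695 on the plus strand, Gria4 at chr9:4796235-4796484 on the minus strand and Gria2 at chr3:80802836-80803085 on the minus strand. The sequences come from RefSeq on GRCm38.p6 and run 5′ to 3′ on the strand of the gene, with GGGCGG on either strand (the GC box, a motif of SP-type factors) in capitals.
Grik3: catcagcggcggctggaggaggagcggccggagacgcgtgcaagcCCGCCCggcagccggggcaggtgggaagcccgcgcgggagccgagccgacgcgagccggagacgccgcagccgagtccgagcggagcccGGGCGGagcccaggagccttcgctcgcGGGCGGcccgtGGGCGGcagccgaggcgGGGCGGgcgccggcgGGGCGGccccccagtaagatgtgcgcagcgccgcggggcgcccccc
Gria4: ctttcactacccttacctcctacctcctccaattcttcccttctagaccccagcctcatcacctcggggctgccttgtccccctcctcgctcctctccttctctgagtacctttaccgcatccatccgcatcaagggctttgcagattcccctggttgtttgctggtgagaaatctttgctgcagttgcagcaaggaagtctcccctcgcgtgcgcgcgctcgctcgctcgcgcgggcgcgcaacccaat
Gria2: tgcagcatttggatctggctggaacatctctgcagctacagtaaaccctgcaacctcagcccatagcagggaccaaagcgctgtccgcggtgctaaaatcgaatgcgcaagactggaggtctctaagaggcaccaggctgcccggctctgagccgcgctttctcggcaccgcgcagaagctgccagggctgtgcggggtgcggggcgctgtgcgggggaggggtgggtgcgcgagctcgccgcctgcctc
All 250 printed bases of Grik3 and of Gria2 and 145 of those of Gria4 lay in the accessible region counted as the promoter of the gene. The GC box occurred 6 times before Grik3 and not before Gria4 or Gria2, and 32.9% of 27025 mouse promoters of this length held at least 1. GC content was 82.0% for Grik3, 58.8% for Gria4 and 64.8% for Gria2, against a median of 52.0%. CANNTG, the E-box, occurred 1 time in each of the 3 (66.0% of promoters had it), and neither TGACGTCA (1.62%) nor the NRF1 motif (3.86%) was in any of them. Both strands were read and matches of different motifs could overlap. A match is a run of letters and not a bound site.

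Gria1 and Gria2 were the AMPA subunits of highest RNA in excitatory neurons. Levels are UMIs of a gene per 1000000 UMIs of the class in a library (CPM), given as mean ± SD over 4 libraries or for MF1, MF2, HF1 and HF2 in that order. Gria1 (ENSMUSG00000020524, chr11:57011387-57330244, GRCm38) had 2946 ± 208 CPM in CA1, 2432 ± 266 in DG-M and 2331 ± 214 in CA3, and the ranges of DG-M and CA3 overlapped. In INH-MGE it was 2386, 4233, 3276 and 2949, the highest mean of any named class but with a range that overlapped CA1. AST and OPC held little, 144 ± 27.4 in AST and 152 ± 22.6 in OPC, or 5.83 and 6.14% of the EXC level, under the median of the neuronal reference genes there.

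Gria2 (chr3:80681450-80802835) was high in every excitatory class, lower in interneurons and abundant in AST and OPC. It ranged from 2576 to 2887 CPM in CA1 to 2138 to 2261 in DG-M, but was only 1039 to 1127 in INH-MGE, with no overlap with any excitatory class. AST had 2104, 1931, 1658 and 1813, or 77.2% of the EXC level where the reference genes had a median of 12.6% and a maximum of 58.8%. OPC held 1711 ± 89.9 and OPC-Bmp4 1660.0 ± 207, and their ranges overlapped those of AST. In OPC this was 70.4% of EXC, above the reference median of 14.1% but not above the highest reference gene (70.8%). For OPC-Bmp4 it was 68.3%, with a reference median of 14.9% and a maximum of 54.1%. ODC were lower at 561 ± 72.1, or 23.1% of EXC beside a reference median of 20.7%, and held 187 ± 34.3 when nuclei with a doublet score over 0.05 were left out. In MG it was 139.9 ± 37.5, or 5.76% of EXC, below the reference median.

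Gria3 (chrX:41400854-41678601) and Gria4 (chr9:4417896-4796234) divided the classes more sharply. Gria3 had 1114 ± 96.4 CPM in INH-MGE and 1028 ± 41.7 in CA1, 650.2 ± 34.9 in DG-M and 627 ± 60.6 in CA3, but 145 ± 44.6 in INH-CGE and 124 ± 9.79 in DG-i. OPC, at 580.0 ± 48.9, overlapped CA3. Gria4 was highest in INH-MGE at 2345 ± 228, apart from all other named classes, followed by INH-CGE (1218 ± 158), CR (1169 ± 199.7) and OPC (943 ± 143), which overlapped their neighbours. The excitatory classes lay between 164 in DG-M and 277 in DG-i, and AST and MG at 14.8 and 14.6.

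**Figure D1:**
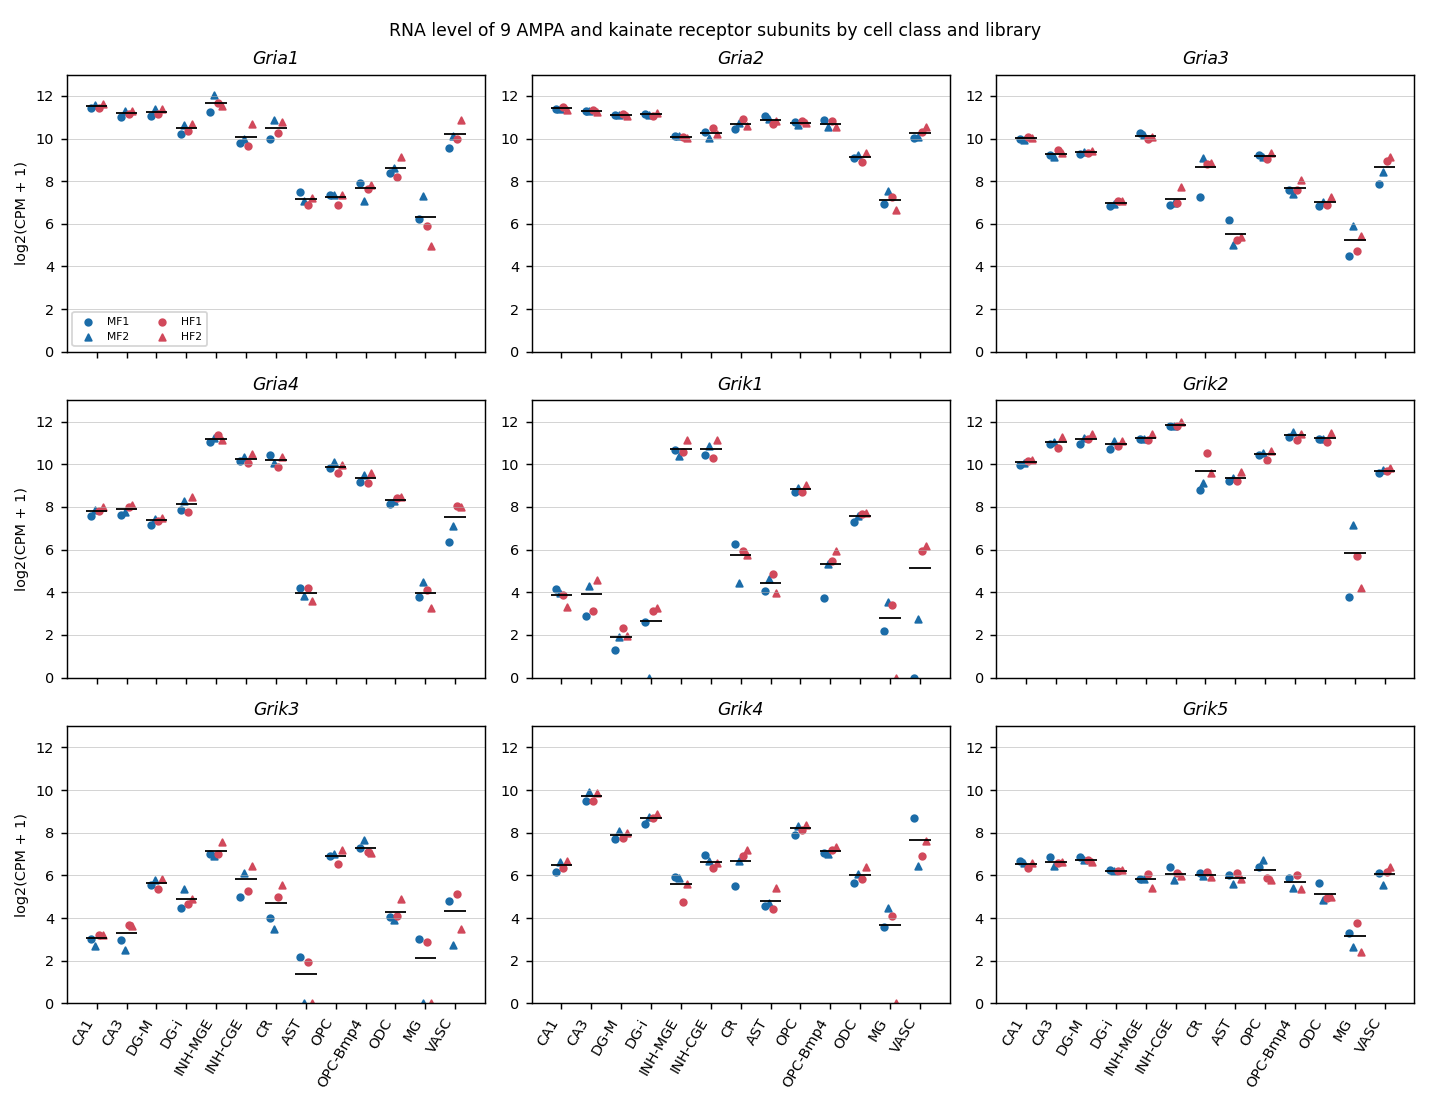
RNA of the 9 subunits, as log2(CPM + 1), in 13 named classes. Each point is 1 library (blue MF, red HF, circles replicate 1, triangles replicate 2) and each bar the log2 of the mean CPM + 1. Grik1 stands high in both interneuron classes, Grik4 in CA3, Gria4 in interneurons, CR and OPC, and nearly all subunits are lowest in MG.

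Among the kainate subunits, Grik2 (GluK2, chr10:49094833-49788766) ranged over the neuronal and macroglial classes from 653 ± 91.9 CPM in AST to 3681 ± 284 in INH-CGE, which stood apart from every other named class. The AST level was 34.1% of EXC, above the median of the neuronal reference genes there (12.6%) but under their maximum (58.8%). ODC (2406 ± 326) and OPC-Bmp4 (2613 ± 304) overlapped DG-M (2369 ± 290.2), and CA1 was lower at 1097 ± 80.5. In MG, Grik2 was 55.9 ± 60.2, or 2.92% of EXC. Gm26543 and Gm47018 lie in introns of Grik2 on the same strand, so reads could be split between them, and their EXC levels were 7.40 and 2.94 CPM.

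Grik1 (GluK1, chr16:87895900-88290265) was highest in interneurons, followed among the named classes by OPC and ODC. INH-MGE had 1642, 1337, 1549 and 2289.9 CPM, and INH-CGE 1365, 1846, 1273 and 2265, with overlapping ranges. OPC followed at 461 ± 51.9 and ODC at 191 ± 25.5, each apart from the next class. Of the unnamed clusters, the one led by Cwh43 and Skap1 (392 nuclei) had 308 ± 44.4 and the one with Fn1 and Stac among its leading genes (206) 287 ± 53.4, both above every ODC library. OPC-Bmp4 was lower at 38.7 ± 20.0 and overlapped CR (52.3 ± 23.1). DG-M held 2.77 ± 1.06, from 44 UMIs in all 4 libraries together, and CA1 and CA3 13.5 and 13.9.

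Grik3 (GluK3, chr4:125490700-125714173) was highest among the named classes in OPC-Bmp4 (156 ± 31.7 CPM), INH-MGE (142 ± 33.1) and OPC (121 ± 22.1), whose ranges overlapped. The unnamed cluster led by Cwh43 and Skap1 exceeded them all with 345 ± 28.8. DG-M held 49.1 ± 6.71 and CA1 and CA3 only 7.30 and 8.72. In AST it came to 2, 0, 4 and 0 UMIs. Among the high-affinity subunits, Grik4 (GluK4, chr9:42518135-42944493) peaked in CA3 with 719, 968, 728 and 927 CPM, and every CA3 library exceeded every library of every other named class. DG-i was next at 409 ± 53.2, apart from OPC (294 ± 42.1) and DG-M (237 ± 30.5), which overlapped each other. CA1 had 87.4 ± 14.3 and INH-MGE 47.8 ± 15.6. Grik5 (GluK5, chr7:25009849-25072346) ranged from 55.1 in INH-MGE to 106 in DG-M among neurons, and lay at 7.85 in MG.

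Reads of nuclear RNA rise with the length of a gene, so genes were compared with each other only as CPM per 100 kb of annotated gene. On that scale Gria2 led in EXC with 2002, ahead of Gria1 at 775, Grik2 at 276, Gria3 at 255 and Grik5 at 157. Grik4 had 81.6, Gria4 54.8, Grik3 11.9 and Grik1 2.2. In INH the order was Gria2 (888), Gria1 (752), Gria4 (495), Grik1 (484) and Grik2 (434).

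The share of Gria2 among all AMPA subunit UMIs was 14.2% ± 1.72 in INH-MGE, 33.9% ± 7.03 in INH-CGE, 39.3% ± 2.11 in CA1, 44.2% ± 2.37 in CA3, 40.6% ± 2.77 in DG-M, 55.4% ± 4.02 in DG-i, 50.6% ± 4.23 in OPC and 90.3% ± 1.24 in AST. No INH-MGE library reached the lowest library of another of these classes, and every AST library lay above all others. Gria4 supplied 30.3% ± 2.46 in INH-MGE and 3.01% ± 0.142 in DG-M. Because the genes differ in length, these shares serve to compare classes and are not the makeup of receptors.

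CA3 and CA1 pyramidal neurons differed in 4 of the 9 subunits. The comparison used edgeR's quasi-likelihood test on summed UMIs with library as a term, p-values adjusted by Benjamini-Hochberg over all genes, and a call at an adjusted p under 0.05 and at least 1.2-fold. With it 27.3% of all 11664 genes were called, 13.7% higher and 13.5% lower. Grik4 was the main difference. Its levels were 70.7, 97.9, 80.4 and 101 in CA1 against 719, 968, 728 and 927 in CA3, and the log2 difference was 3.22 ± 0.064, edgeR adjusted p = 5.7e-21 (here and below ± SE). Returning the subunit genes to the clustering gave 3.19. The size of the gap depends on the CA1 subcluster, with no test between them. Grik4 was 161 ± 30.0 CPM in the one led by Pde11a and 34.7 ± 10.6 in the other, both under every CA3 library. Grik2 was higher in CA3 too (0.89 ± 0.058, edgeR adjusted p = 1.0e-11), while Gria3 (-0.76 ± 0.053, edgeR adjusted p = 4.5e-11) and Gria1 (-0.38 ± 0.047, edgeR adjusted p = 5.2e-07) were lower. Gria1 was no longer called at doubled cluster resolution (-0.0098) or without the library term (adjusted p = 0.0842 by edgeR).

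Mature granule neurons differed from CA1 in 8 subunits, where 46.2% of all genes were called, 24% higher and 22.2% lower, and from CA3 in 5, where 44.4% were, 22.7% higher and 21.7% lower. Against CA1, all 4 AMPA subunits were lower in DG-M, from -0.41 ± 0.063 (Gria1) to -0.79 ± 0.064 (Gria3) on the log2 scale, and Grik1 was lower as well. Grik2, Grik3 and Grik4 were higher. Grik3 went from 7.20, 5.51, 8.35 and 8.16 CPM in CA1 to 46.7, 53.6, 40.8 and 55.4 in DG-M, a log2 difference of 2.59 ± 0.15, edgeR adjusted p = 4.8e-15. Markers of other cell types stood higher in DG-M as well. The 20 interneuron markers summed to 1049 to 1274 CPM in DG-M and 176 to 232 in CA1 (15 of 20 higher), with Gad1 at 58.8 and 14.3 and Gad2 at 11.5 and 7.44. The 16 astrocyte markers summed to 1231 to 1503 and 164 to 285 (12 of 16 higher), with Aqp4 at 5.18 and 1.87, and CA3 lay between, at 310.1 to 497 and 513 to 583. No marker of either list was at 0 in DG-M or CA1, and their part in the differences was not tested. Against CA3, Grik3 was again higher in DG-M (2.32 ± 0.16, edgeR adjusted p = 2.6e-13), and Grik4 was lower (-1.91 ± 0.053, edgeR adjusted p = 1.6e-23), as were Grik1, Gria4 and Gria2. Gria2 lay near the fold limit, at -0.29 ± 0.043, edgeR adjusted p = 9.6e-07, and under it with scaling by library totals alone (-0.20). It was under the limit too without the low-count filter (-0.241) and at doubled resolution (-0.240). Without the library term Gria2 was not called against CA3 (adjusted p = 0.135 by edgeR), nor Gria1 against CA1 (adjusted p = 0.0816 by edgeR). The lower means of Gria4 and Grik1 in DG-M held against the smaller of the CA1 subclusters only, with no test between subclusters. The larger one (500 nuclei) had 83.6 ± 17.1 and 1.80 ± 1.52 CPM, where DG-M had 164 ± 15.1 and 2.77 ± 1.06, and the smaller one (325 nuclei, led by Pde11a) 426 ± 43.8 and 30.1 ± 9.06. At doubled resolution 5 subunits were called against CA1 and 3 against CA3. The share of all genes called at that setting is not given, so these counts are not read as particular to the subunits. Against CA1, Grik4 at 0.15 and Gria2 at -0.14 were then not called, Gria1 turned to 0.0083, and Grik3 came to 0.85.

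Immature granule neurons differed from mature ones in 7 of 8 tested subunits, with 49.3% of all genes called, 26.6% higher and 22.7% lower. Grik1 was too low to be tested. Gria3 differed most, at 112, 121, 132 and 132 CPM in DG-i against 611, 667, 633 and 689.5 in DG-M (-2.61 ± 0.080, edgeR adjusted p = 6.5e-23). Gria1 was 1167, 1600.4, 1303 and 1619 in DG-i against 2126, 2649, 2294 and 2661 in DG-M (-1.01 ± 0.052, edgeR adjusted p = 5.0e-17). Grik3 (-1.04 ± 0.16), Grik5 (-0.74 ± 0.11) and Grik2 (-0.49 ± 0.054) were also lower in DG-i. Gria4 (0.50 ± 0.084, edgeR adjusted p = 7.4e-06) and Grik4 (0.57 ± 0.072, edgeR adjusted p = 6.1e-08) were higher. Their levels were 284 ± 65.2 and 428 ± 49.7 CPM in the larger DG-i subcluster. The DG-M subcluster led by Trhr had 255 ± 17.2 and 334 ± 52.2, with overlapping ranges, and the smaller DG-i one only 189 ± 119 and 176 ± 61.8. Gria2 passed the p threshold but not the fold limit (-0.20 ± 0.053, edgeR adjusted p = 0.00167). In DG-i, 17 of 20 interneuron, 13 of 16 astrocyte and 13 of 14 ODC markers were higher than in DG-M. The interneuron markers still summed to less, 619 to 982 CPM against 1049 to 1274. Astrocyte markers did too, with 729 to 863 against 1231 to 1503. Gad1 was 94.1 in DG-i and 58.8 in DG-M, and Gad2 16.4 and 11.5. The part of these markers in the differences was not tested. Grik2 lost its call without the library term (adjusted p = 0.0547 by edgeR) and with scaling by library totals alone, where its log2 difference of -0.26 missed the fold limit. That scaling moved the median of all genes by 0.22 here, by 0.13 for DG-M against CA1 and by -0.10 for ODC against OPC, and by under 0.1 in each of the other pairs. It turned the share of higher calls from 54.0 to 70.5% for DG-i against DG-M, from 52.0 to 66.1% for DG-M against CA1 and from 51.1 to 61.8% for DG-M against CA3, and no called subunit changed direction with it.

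**Figure D2:**
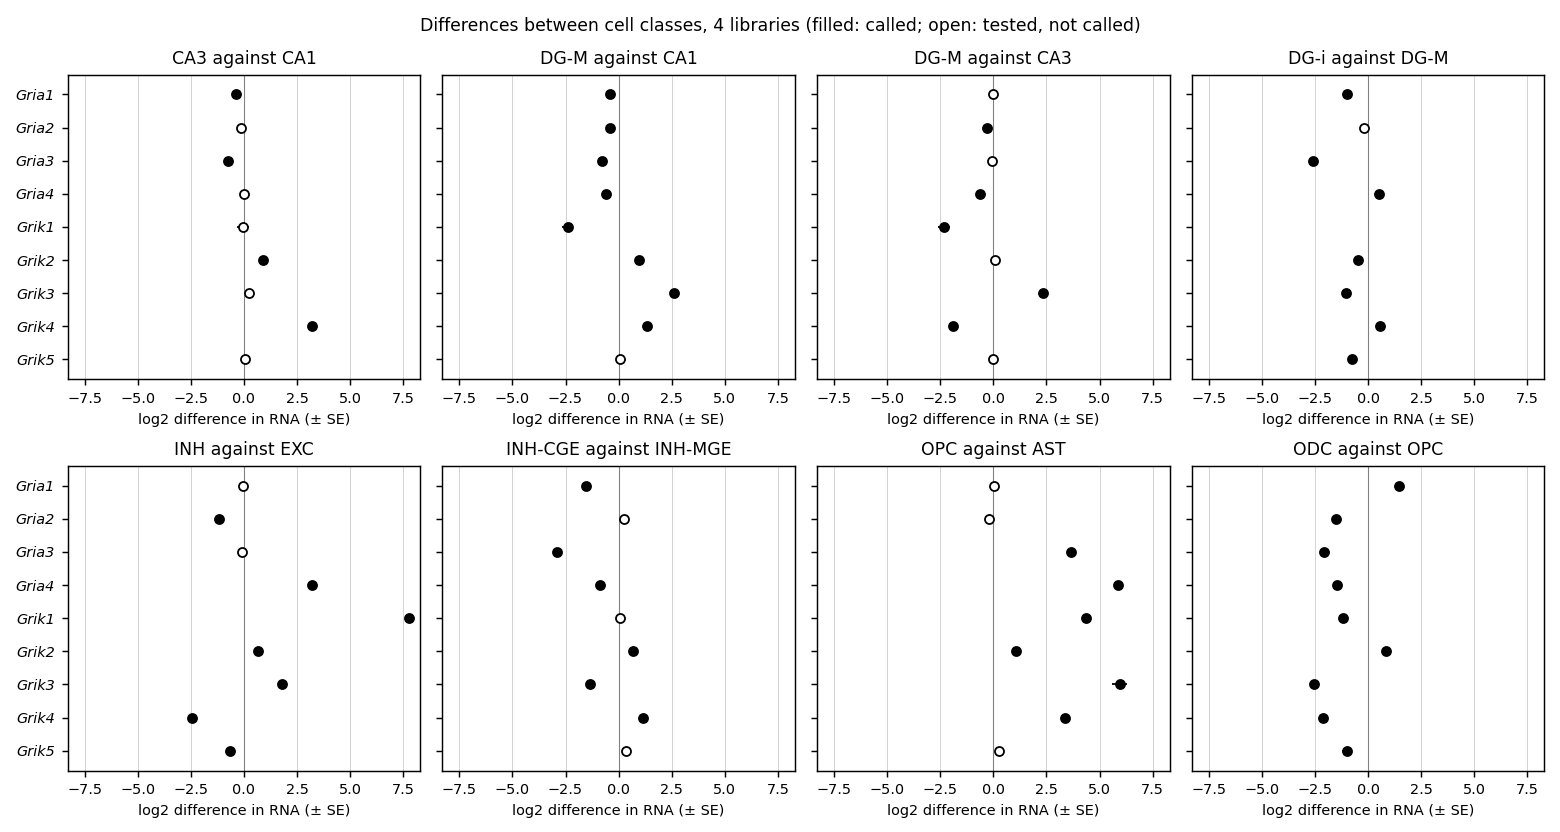
Log2 differences in RNA of the 9 subunits, ± SE over 4 libraries, for 8 pairs of classes. Positive values are higher in the class named first. Filled points passed the test and the 1.2-fold limit, open points did not, and Grik1 was not tested between DG-i and DG-M. The Gria1 value of ODC against OPC changes sign when nuclei with a high doublet score are left out.

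Interneurons differed from excitatory neurons in 7 subunits, with 44.8% of all genes called, 23.2% higher and 21.7% lower. Grik1 had 1664, 1793, 1710.0 and 2471 CPM in INH and 7.44, 9.85, 7.63 and 9.79 in EXC (7.78 ± 0.10, edgeR adjusted p = 4.3e-28), the widest gap of any subunit in any pair of classes tested. Gria4 was 1720.2, 1946, 1931 and 1897 in INH and 177, 211, 207 and 235 in EXC (3.18 ± 0.073, edgeR adjusted p = 6.5e-23). Grik3 (1.78 ± 0.10, edgeR adjusted p = 1.4e-14) and Grik2 (0.65 ± 0.067, edgeR adjusted p = 4.6e-09) were also higher in INH. Lower in INH were Grik4 (-2.45 ± 0.10, edgeR adjusted p = 3.1e-17), Gria2 (-1.17 ± 0.066, edgeR adjusted p = 2.0e-14) and Grik5 (-0.66 ± 0.086, edgeR adjusted p = 2.9e-07). For Gria1 and Gria3, the log2 differences of -0.057 ± 0.072 and -0.071 ± 0.073 were not called.

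The interneuron types differed from each other in 6 subunits, against 16.6% of all genes, 8.11% higher and 8.53% lower. Gria3 had 118, 126, 123 and 211 CPM in INH-CGE and 1230.2, 1147, 1006 and 1072 in INH-MGE (-2.89 ± 0.16, edgeR adjusted p = 1.9e-09), and Gria1 and Gria4 were lower in INH-CGE too (-1.51 ± 0.17 and -0.88 ± 0.12). Grik2 (0.69 ± 0.10) and Grik4 (1.15 ± 0.18) were higher in INH-CGE. Grik3 was lower (-1.33 ± 0.19, edgeR adjusted p = 6.1e-05), but was not called when the subunit genes entered the clustering (-0.25) or at doubled resolution (-0.077). Both settings left fewer nuclei in INH-MGE. It held 55 to 75 a library in the main clustering, 27 to 37 with the subunit genes and 14 to 29 at doubled resolution. Grik1 was not called, with a 95% interval of -0.23 to 0.32.

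In glia, OPC exceeded AST in 6 subunits and were lower in none that was called, where 46.6% of all genes were called, 23.8% higher and 22.8% lower. Gria4 was 895, 1104, 771 and 1003 CPM in OPC and 17.6, 13.1, 17.4 and 11.1 in AST (5.87 ± 0.18, edgeR adjusted p = 6.0e-42). For Grik3 the OPC levels were 119, 129, 91.9 and 144, and AST held 6 UMIs in all (5.95 ± 0.35, edgeR adjusted p = 1.4e-25). Grik1 (4.35 ± 0.18, edgeR adjusted p = 1.1e-34), Gria3 (3.67 ± 0.16, edgeR adjusted p = 2.4e-33), Grik4 (3.39 ± 0.17, edgeR adjusted p = 8.2e-29) and Grik2 (1.05 ± 0.11, edgeR adjusted p = 2.6e-13) were higher in OPC as well. Gria1, Gria2 and Grik5 were not called. Interneurons express several of the same subunits, and their markers were read beside this result. The 20 interneuron markers summed to 10486 to 13567 CPM in OPC and 1744 to 2059 in AST. Most of the OPC sum was Erbb4 (4186), Nxph1 (3107), Sox6 (2376) and Adarb2 (1674), which stood at 10569.5, 2724, 301 and 5846 in INH. Of the defining markers, Gad1 was 72.7 CPM in OPC, 26.5 in AST and 333 in INH. Gad2 and Slc32a1 lay at 18.5 and 4.10 in OPC, at 19.1 and 3.85 in AST and at 410.2 and 59.0 in INH. Of the 20, 13 were higher in OPC than in AST, such as Npas1 (23.1 and 1.70). The others were lower, such as Lhx6 (0.463 and 1.81) and Sst (57.6 and 77.2). None of the list was at 0 in OPC, and the part of interneuron RNA in the differences was not tested.

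Oligodendrocytes differed from OPC in all 9 subunits, 2 higher and 7 lower, with 49.4% of all genes called, 23.3% higher and 26.1% lower. Of these, the higher Gria1 (1.43 ± 0.14, edgeR adjusted p = 6.5e-09) changed sign under 3 alternatives. When nuclei with a doublet score over 0.05 were left out, Gria1 in ODC went from 393 ± 114 to 44.7 ± 6.50 CPM and the difference from OPC turned to -1.51. It was -2.45 with the subunit genes in the clustering and -1.58 at doubled resolution. The summed neuronal reference genes of ODC went from 1548 to 1798 CPM in the 4 libraries to a mean of 789 ± 166 without the high-scoring nuclei, and the part of neuronal RNA in these changes was not tested. Grik2 was higher in ODC both ways, 0.86 ± 0.10, edgeR adjusted p = 1.0e-07 with those nuclei and 0.94 without. The other 7 were lower both ways, and leaving these nuclei out moved several of them by over 1.5 times. Gria3 went from -2.08 to -4.70, Gria2 from -1.52 to -3.08 and Grik4 from -2.12 to -3.76, and Grik5 came to -1.90. Grik3 went from -2.56 to -3.78, while Gria4 (-1.45 and -1.49) and Grik1 (-1.18 and -0.95) moved little. With all nuclei, the interneuron markers summed to 4843 to 6824 CPM in ODC and 10486 to 13567 in OPC, with 4 of 20 higher in ODC. The astrocyte markers summed to 362 to 533 and 1137 to 1282, with 2 of 16 higher in ODC. The part of these markers in the differences was not tested. Without the high-scoring nuclei, Gria4 (306 ± 43.3 CPM), Grik1 (221 ± 18.8) and Grik2 (2491 ± 397) in ODC lay above the AST levels of 13.9 ± 3.31, 20.6 ± 6.10 and 642 ± 89.2. The 20 interneuron markers then summed to 5552 to 8125 CPM in ODC and 1746 to 2044 in AST, with 6 of 20 higher in ODC and 1 at 0 there. Of the defining ones, Gad1 was 12.4 in ODC and 26.3 in AST, Gad2 13.4 and 19.0, and Slc32a1 1.77 and 3.92. MG lay at or under 8.02% of EXC for 7 subunits, under the reference median of 11.6%, and Grik1 and Grik3 came to 7 and 6 UMIs there.

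Accessibility of the promoters, from the ATAC counts of the same nuclei and not used for clustering, was taken as the counts in accessible regions within 500 bp of an annotated start, scaled to the total of the class as for CPM (IPM), and tested the same way at an adjusted p under 0.05. Between OPC and AST, 7 of 8 tested promoters were called, all higher in OPC (34.8% of promoters called, 18.2% higher and 16.7% lower). The Grik3 promoter had 47.2, 43.5, 61.4 and 44.4 IPM in OPC and 0.983, 1.10, 2.00 and 0.958 in AST (5.15 ± 0.29, edgeR adjusted p = 2.6e-47). At Gria4, OPC had 46.1, 28.6, 39.7 and 32.3 and AST 2.95, 0.548, 0.545 and 0.958 (5.05 ± 0.35, edgeR adjusted p = 1.5e-35), and Grik1 differed by 4.07 ± 0.42, edgeR adjusted p = 5.1e-18. Grik3, Gria4 and Grik1 were also the 3 subunits with the largest RNA differences between OPC and AST. The Gria2 promoter was 34.3 to 40.6 IPM in AST and 43.3 to 65.5 in OPC, a log2 difference of 0.47 ± 0.15, edgeR adjusted p = 0.00543, and was not called without HF1 (0.29) or with a window of 2000 bp (0.13). Nor was Gria1 called without HF2 (1.13) or over the whole gene body (0.19). From OPC to ODC, 6 of 8 promoters were lower and none higher (30.9% of all called, 12.4% higher and 18.5% lower), led by Grik3 (-2.30 ± 0.21, edgeR adjusted p = 3.5e-18). The Gria1 promoter was not called there (-0.32 ± 0.35, edgeR adjusted p = 0.531). Nuclei of high doublet score stayed in for all promoter counts.

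Between INH and EXC, 5 promoters were called (32% of all, 16.9% higher and 15.1% lower). The Grik1 promoter held 23.4, 21.6, 28.3 and 24.2 IPM in INH and 3.21, 2.41, 2.62 and 2.68 in EXC (2.79 ± 0.23, edgeR adjusted p = 1.2e-15), and Gria4 (0.82 ± 0.13, edgeR adjusted p = 5.9e-07) and Grik3 (0.61 ± 0.14, edgeR adjusted p = 4.3e-04) were higher in INH, Gria2 (-0.57 ± 0.11, edgeR adjusted p = 2.1e-05) and Gria3 (-0.87 ± 0.27, edgeR adjusted p = 0.0105) lower. Gria3 was not called without MF1 (-0.77) or HF1 (-0.68). Grik4, whose RNA was lower in INH, was not called (-0.15 ± 0.12, edgeR adjusted p = 0.358). For CA3 against CA1 the only promoter called was Grik4 (9.96% of all, 6.05% higher and 3.91% lower), with 31.6, 31.0, 32.0 and 28.3 in CA3 and 20.4, 21.9, 18.5 and 22.9 in CA1 (0.52 ± 0.14, edgeR adjusted p = 0.00685), and it was not called without HF1 (0.45). DG-M differed from CA1 in 4 promoters (23% of all, 10.8% higher and 12.2% lower), of which Grik3 was the largest (1.56 ± 0.18, edgeR adjusted p = 5.5e-12) and Grik5 changed sign with a wider window of 2000 bp (-0.38). Of these 4, Grik3 alone was called whichever library was left out. Against CA3 the count was 3 (23.4% of all, 10.2% higher and 13.2% lower), with Grik3 (0.98 ± 0.19, edgeR adjusted p = 7.7e-05) and Gria1 (0.46 ± 0.13, edgeR adjusted p = 0.00768) higher and Gria4 (-0.58 ± 0.16, edgeR adjusted p = 0.00601) lower in DG-M, the last not called without HF2 (-0.42). Over the gene body the Gria1 difference changed sign (-0.14). In DG-i, the Gria3 (-0.98 ± 0.29, edgeR adjusted p = 0.00624) and Gria1 (-0.38 ± 0.13, edgeR adjusted p = 0.0167) promoters were lower than in DG-M (36.1% of all called, 18.7% higher and 17.4% lower), 2 of 9, and neither was called without MF2 (-0.80 and -0.25), nor Gria1 without HF1 or Gria3 over the gene body (-0.26). No subunit promoter was called between the interneuron types, where 0.613% of all were, 0.307% higher and 0.307% lower, and 8 subunits could be tested.

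**Figure D3:**
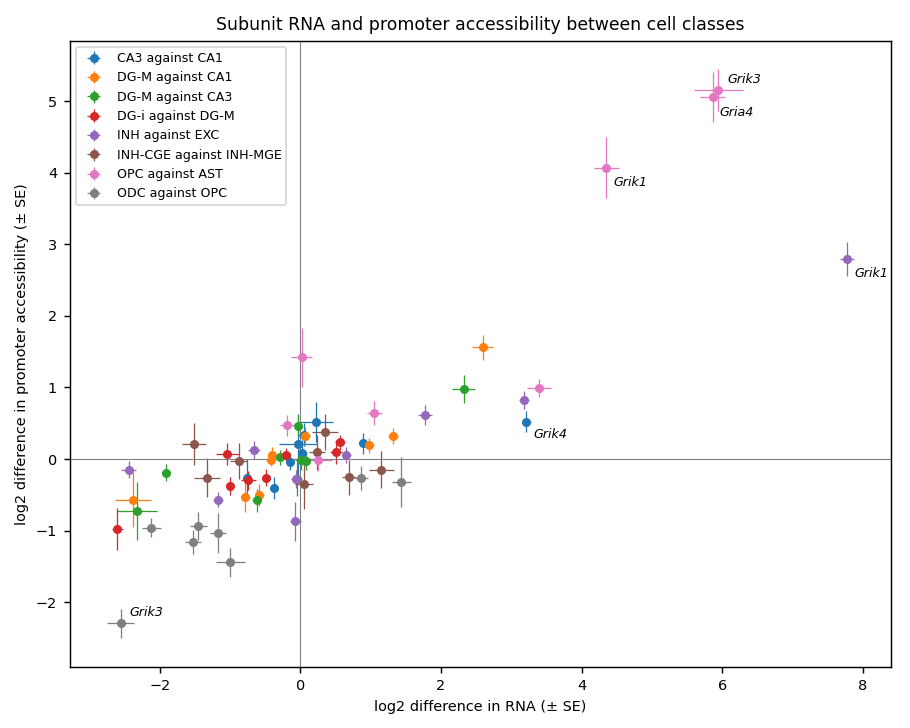
Log2 difference in RNA (x axis) against log2 difference in promoter accessibility (y axis), each ± SE, for the subunits in 8 pairs of classes. Each point is 1 subunit in 1 pair, coloured by pair. Grik3, Gria4 and Grik1 in OPC against AST and Grik1 in INH against EXC lie far out on both axes, and Grik4 in CA3 against CA1 far out on the RNA axis only.

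Across the 13 classes, mean RNA and mean promoter accessibility, both as log2(value + 1), ran together for 8 of the subunits, with Pearson r from 0.77 (Grik5) to 0.95 (Grik3). For Grik4 r was 0.21. Its promoter regions were open in AST (38.7 IPM), MG (27.0) and CA3 (30.7) alike, where its RNA was 27.3, 12.0 and 835 CPM. These correlations share libraries and nuclei and describe 13 points each, with VASC among them although its subunit levels were set aside above.

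Partner proteins of the receptors were counted as a list of 36 genes: auxiliary subunits of AMPA receptors (the TARP, cornichon and Shisa families), the kainate auxiliaries Neto1 and Neto2, the C1ql proteins of mossy fibre synapses, scaffolds, pentraxins and RNA editing enzymes. Cacng genes encode TARPs, Cnih3 is a cornichon, Gsg1l an auxiliary subunit that dampens AMPA currents, Nptx2 a secreted pentraxin that gathers AMPA receptors, and Grip1, Grip2 and Dlg1 are scaffolds. The list was written with earlier results of these data known. Between CA3 and CA1, 20 of 31 tested partners were called, 9 higher in CA3 and 11 lower, with the largest log2 differences for Cnih3 at -1.98, Nptx2 at -1.96, Neto1 at 1.88 and Gsg1l at -1.85. DG-M against CA1 gave 22 of 32 (C1ql2 at 4.54, Cacng5 at 3.36, Neto2 at -3.27 and Nptx2 at -2.83), and against CA3 22 of 32 (Gsg1l at 3.62, C1ql2 at 3.51, C1ql3 at 3.46 and Neto2 at -3.37). In DG-i, 21 of 33 were lower and 5 higher than in DG-M, led by Cacng4 at 3.89, Cacng3 at -3.72, Neto1 at -3.40 and C1ql2 at -3.40. Cacng4, a TARP, thus stood higher in immature and Cacng3, another TARP, higher in mature granule neurons. INH and EXC differed in 30 of 34, 18 of them lower in INH (C1ql3 at -4.33, C1ql2 at -4.22, Grip1 at 3.54 and Grip2 at 3.47), and the interneuron types in 9 of 27 (Gsg1l at -2.31, Cacng3 at -1.62, Shisa9 at 1.54 and Dlg1 at 1.38). OPC exceeded AST in 15 of 25 (Cacng4 at 4.98, Neto1 at 4.76, Shisa7 at 3.13 and Neto2 at 2.67). ODC lay under OPC in 12 and over it in 4 of 28 (Cacng4 at -5.28, Cnih3 at 4.15, Neto2 at -3.14 and Neto1 at -2.91). The nuclei of high doublet score, which changed several subunits in this pair, are kept in these values. Partner values without them are not given. The median log2 difference of the partners ran from -0.81 (DG-i against DG-M) to 0.72 (OPC against AST) over the 8 pairs. That of the tested subunits ran from -1.45 (ODC against OPC) to 3.39 (OPC against AST), and that of all genes from -0.033 to 0.053. The share of all genes called in each pair is given above with the subunits.

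Levels also varied within the named classes. Of the CA1 subclusters, the one led by Pde11a (325 nuclei) had 426 ± 43.8 CPM of Gria4, 161 ± 30.0 of Grik4 and 30.1 ± 9.06 of Grik1. The other (500 nuclei) had 83.6 ± 17.1, 34.7 ± 10.6 and 1.80 ± 1.52, and the ranges over libraries did not overlap for any of the 3. Among interneurons, the INH-MGE subcluster led by Sst (121 nuclei) held 224 ± 63.0 CPM of Grik3 and the one led by Mypn and Syt2 (131) 71.3 ± 23.3. In the INH-CGE subcluster led by Vip (91), Gria1 was 603 ± 152 and Grik4 175 ± 30.5. The other INH-CGE subcluster (84), led by Syt6, had 1357 ± 496 of Gria1 and 54.5 ± 14.5 of Grik4, and the Grik4 level of the INH-MGE subclusters was 54.1 ± 14.7 and 42.2 ± 21.2. The higher Grik4 of INH-CGE thus lay in the subcluster led by Vip. Subclusters were drawn from the RNA of these nuclei, and no test was run between them.

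**Figure D4:**
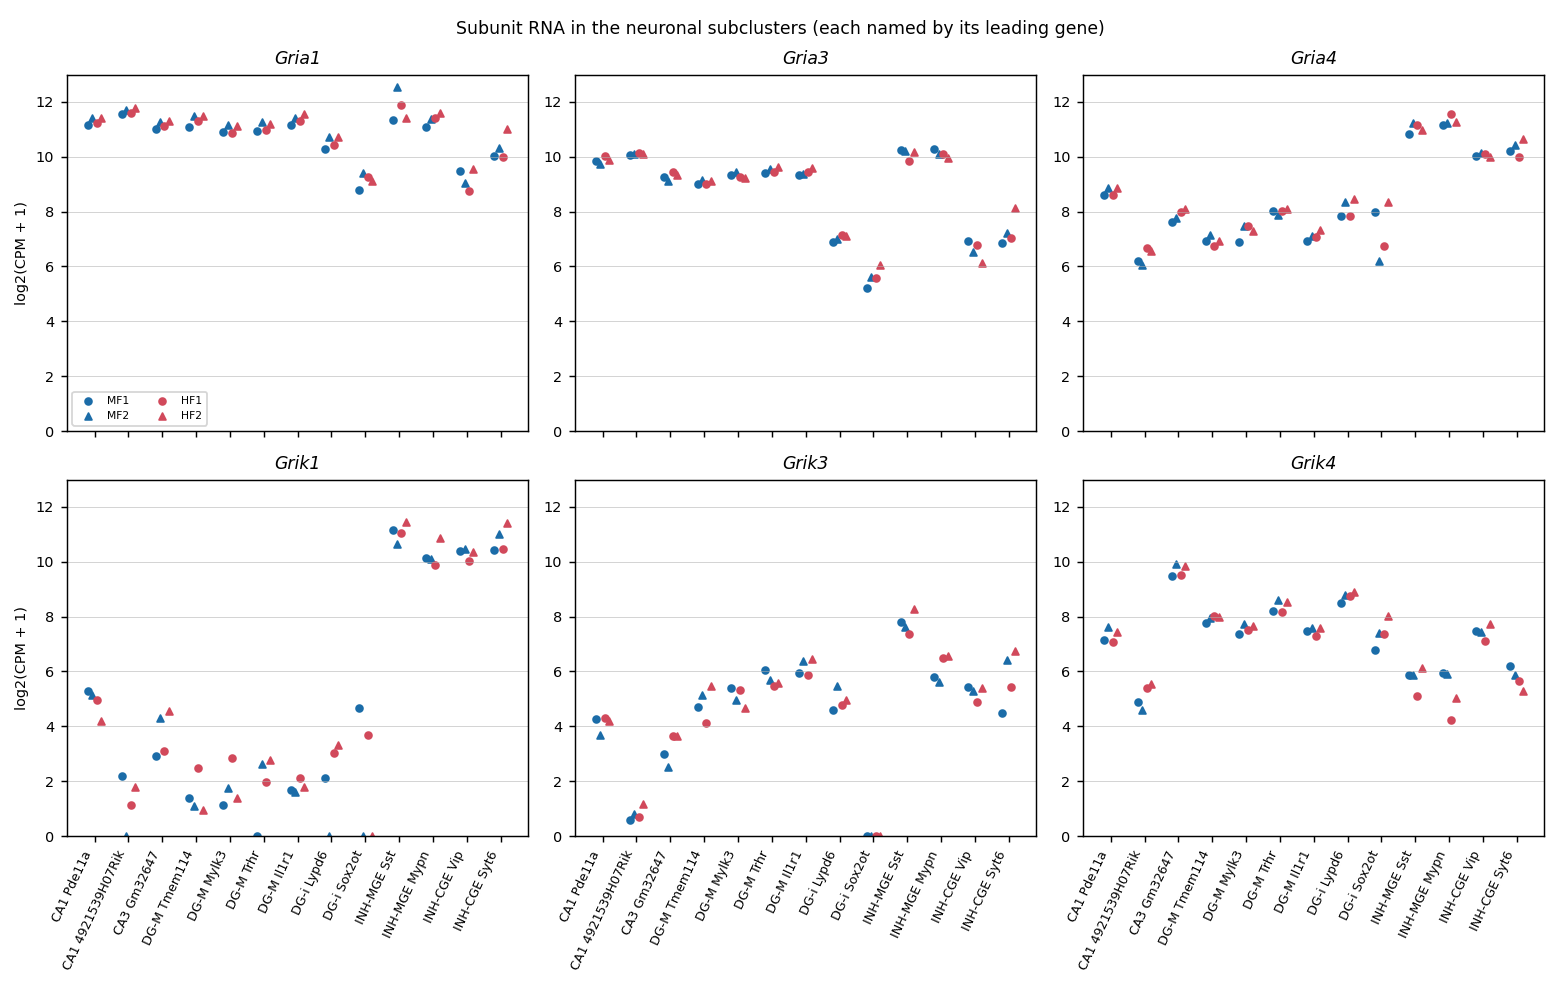
RNA of 6 subunits, as log2(CPM + 1), in the subclusters of the CA1, CA3, dentate granule and interneuron classes, each named by its class and leading gene. Each point is 1 library (blue MF, red HF, circles replicate 1, triangles replicate 2). Gria4, Grik1, Grik3 and Grik4 separate the CA1 subclusters, and Gria3 is low in the immature granule and caudal-type interneuron subclusters. Gria1 means are lower there too, less markedly, and the range of the subcluster led by Syt6 overlaps those of some others.

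The genes whose levels over the 13 classes were most like each subunit were found among 11532 genes of at least 20 CPM in some class, by Pearson r of log2(mean CPM + 1). VASC was again among the 13. For Gria1 they were A230004M16Rik (0.99), Mtus2 (0.98) and Grin1 (0.97), and for Gria2 Apba2 (0.98), Grik5 (0.96) and Pxdn (0.94). Gria3 was closest to Ppp4r4 (0.92), Rimbp2 (0.90) and Schip1 (0.90), and Gria4 to Kctd8 (0.93), 5330434G04Rik (0.92) and Vopp1 (0.91). Among the kainate subunits, Grik1 was closest to Alk (0.94), Cdc14b (0.91) and Nap1l5 (0.89), Grik2 to Bicd1 (0.93), Gm26549 (0.93) and Ggt7 (0.91) and Grik3 to Lrrtm3 (0.89), Gm13052 (0.87) and 1700025G04Rik (0.85). Grik4 was closest to Cep78 (0.89), Adamts3 (0.88) and Kcnmb4 (0.87), and Grik5 to Rgs7 (0.97), Gria2 (0.96) and Nlgn1 (0.95). Grin1, near Gria1, is the obligatory subunit of NMDA receptors. Among the subunits themselves, Gria2 and Grik5 were the most alike pair (0.96), followed by Gria4 and Grik3 (0.84), and Grik1 and Grik4 the least (-0.13).

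No subunit passed the test between diets in any of 8 classes (EXC, CA1, CA3, DG-M, DG-i, INH, AST and OPC) by edgeR on 2 libraries a diet. All 9 were tested except in DG-i and AST, where 8 passed the filter on low counts. Of all genes, 0.00944% were called in INH, 0.0549% in OPC and 0% in the other 6, and 0 subunits were called by DESeq2 too. At an unadjusted p under 0.05 stood 2 subunits in CA3 (1.97% of all genes) and 1 in OPC (2.33%). In the other 6 classes 0 did, where the share of all genes was 1.13% in EXC, 1.6% in CA1, 1.51% in DG-M, 1.65% in DG-i, 2.27% in INH and 2.79% in AST. Of the 9 in EXC, 8 had a positive log2 difference (HF minus MF), with a median of 0.16 against 0.0013 over all genes, of which 50.2% were positive. Outside the excitatory classes, 5 of 9 were positive in INH (median 0.092), 4 of 8 in AST (0.061) and 4 of 9 in OPC (-0.031). Differences were scaled by TMM and can depart from the ratio of CPM. In plain CPM 7 of the 9 means were higher in HF in EXC, where 29.1% of genes of 5 CPM or more were.

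The EXC levels show how wide the libraries of a diet lay. Gria1 was 2204, 2649.9, 2329.7 and 2701 CPM, and MF2 and HF2 lay above MF1 and HF1, and the log2 difference was 0.13 ± 0.33, 95% interval -0.59 to 0.84. Grik4 also had MF2 and HF2 above MF1 and HF1, with 280.1, 395, 323 and 394 (0.16 ± 0.25, 95% interval -0.39 to 0.71), and Grik2 with 1676, 1932, 1862 and 2196 had MF2 and HF2 highest (0.25 ± 0.31, 95% interval -0.43 to 0.92). The labels give these numbers no meaning. For Gria2 the levels were 2448, 2420.3, 2504 and 2348 (0.068 ± 0.31, 95% interval -0.61 to 0.74). Gria3 was higher in both HF than in both MF libraries, at 681, 691, 720.4 and 739.6 (0.16 ± 0.23, 95% interval -0.34 to 0.67), which was so for 4.44% of genes of 5 CPM or more. Grik5 was lower in both HF libraries (14.9% of genes), at 107, 95.5, 93.6 and 95.5, with MF2 and HF2 apart by less than the digits shown (-0.021 ± 0.17, 95% interval -0.38 to 0.34). Gria4 had the smallest p in EXC, unadjusted 0.236 and adjusted 1.0 by edgeR, with 0.26 ± 0.21, 95% interval -0.20 to 0.72. Grik1 and Grik3 differed by 0.093 ± 0.28, 95% interval -0.51 to 0.70 and 0.16 ± 0.20, 95% interval -0.27 to 0.58.

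In CA3, Grik3 had the smallest p of any subunit, with 6.96, 4.72, 11.7 and 11.5 CPM (15, 9, 32 and 29 UMIs). Both HF libraries lay above both MF libraries, as did 8.39% of genes, and the log2 difference was 1.04 ± 0.39, 95% interval 0.21 to 1.88, unadjusted p = 0.0183 and adjusted p = 1.0 by edgeR. Gria4 in CA3 differed by 0.41 ± 0.18, 95% interval 0.015 to 0.80, unadjusted p = 0.0430 and adjusted p = 1.0 by edgeR. In OPC the smallest p was that of Grik5, at 83.4, 106, 58.0 and 54.8 CPM (-0.71 ± 0.31, 95% interval -1.35 to -0.073, unadjusted p = 0.0301 and adjusted p = 1.0 by edgeR). The other smallest p-values belonged to Grik1 in CA1 (-0.43 ± 0.30, 95% interval -1.07 to 0.21), Grik1 in DG-M (0.82 ± 0.52, 95% interval -0.30 to 1.93), Gria3 in DG-i (0.23 ± 0.24, 95% interval -0.28 to 0.74), Grik4 in INH (-0.43 ± 0.23, 95% interval -0.92 to 0.056) and Gria3 in AST (-0.35 ± 0.34, 95% interval -1.07 to 0.36), all with intervals across 0. Without nuclei of a high doublet score Grik1 in DG-M was 1.36 ± 0.54, adjusted p = 1.0 by edgeR. The intervals of Gria1, Gria2, Grik2 and Grik4 in EXC, from the fit on diet alone, leave room for changes of up to about 0.92 on the log2 scale, so the test does not show that diets were alike. In the promoter data of EXC, 0 of 9 subunits were called (0.0139% of all promoters), with log2 differences from -0.20 to 0.076. Tests of whether the diet difference itself differed between DG-i and DG-M or between CA3 and CA1 called 0 of 9 subunits each, and 0% of genes.

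**Figure D5:**
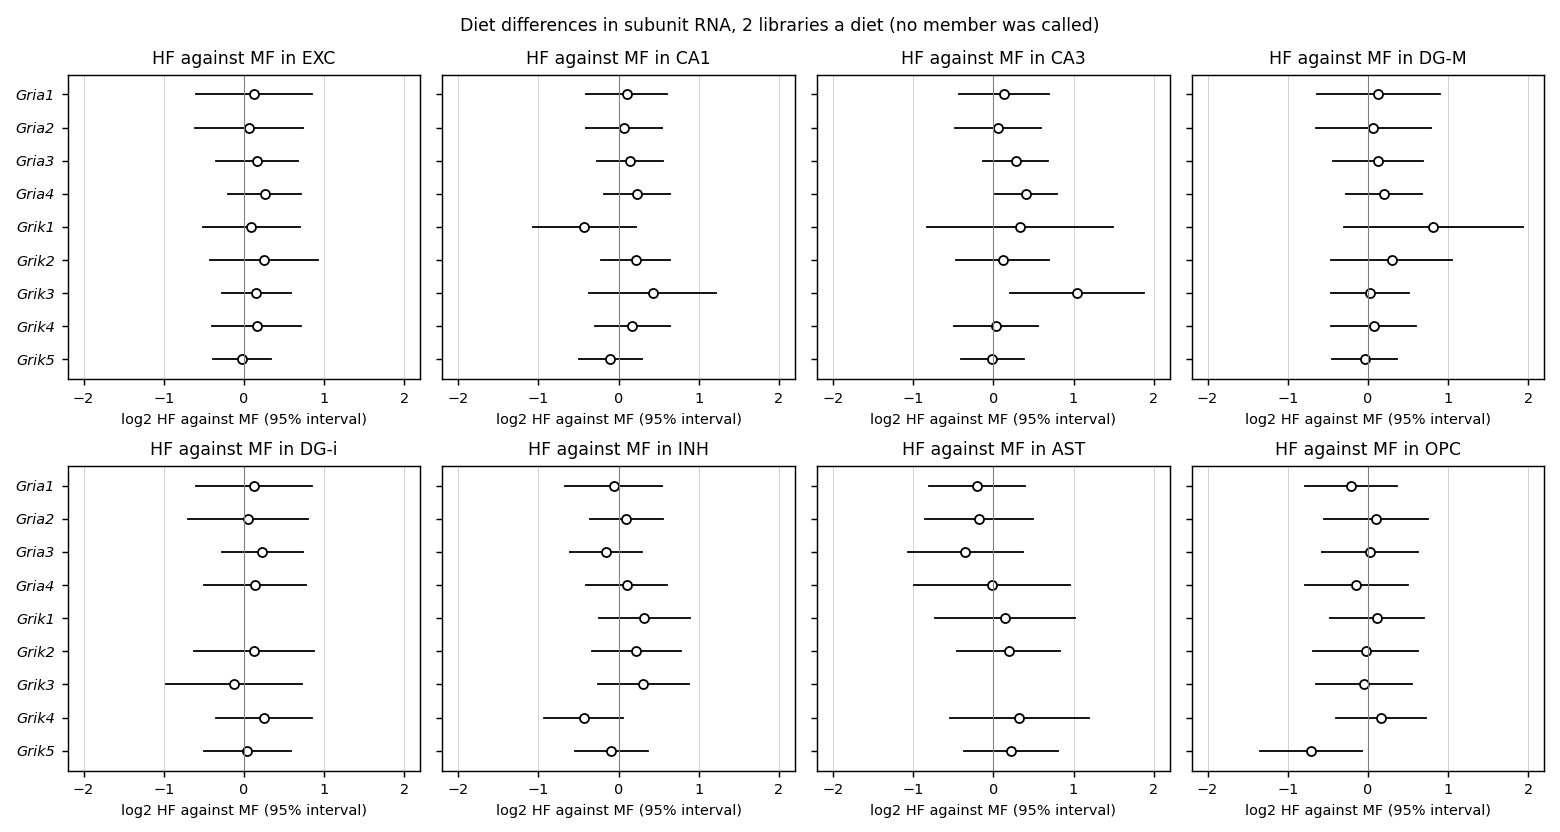
Log2 difference in subunit RNA between HF and MF, with its 95% interval, in 8 classes. Positive values are higher in HF. Intervals exclude 0 for Gria4 and Grik3 in CA3 and Grik5 in OPC only, and none of the points passed the test after adjustment.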

How the data were processed

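Nuclei of dissected hippocampus were profiled by single-nucleus multiome sequencing. Per the labels, the authors aligned reads with Cell Ranger ARC 2.0.1 to mm10. The deposited values are unnormalised UMI counts per gene and nucleus and deposited ATAC counts per peak and nucleus. The filters of the study were applied: 500 to 7000 genes detected, a mitochondrial share of UMIs below 2%, and an ATAC total of 1000 to 70000. The nucleosome and start-site filters were not used here. Scanpy 1.11.5 clustered 3000 variable genes (20 components, Leiden resolution 0.8), then 2000 within EXC and within INH (resolution 0.5). The subunit, partner and 132 technical genes were left out. A cluster was named from at least 3 of its markers among its top 50 genes, or its top 100 for subclusters of EXC and INH. The OPC cluster led by Bmp4 was set apart after the clusters were seen. Clusters with a median Scrublet score over 0.05 entered no class, other nuclei over it stayed in, and leaving them out is an alternative.

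Counts were summed per library and class and tested with edgeR 4.0.16 (quasi-likelihood, TMM, filterByExpr, R 4.3.3), with diet or library as a term and Benjamini-Hochberg adjustment over all genes. Each library sum is 1 replicate. Peaks were merged over libraries, and the 154783 of 253724 merged regions found in all 4 were used. Promoter counts took regions within 500 bp of an annotated start. DESeq2 1.42.0, other scalings, filters, windows and clusterings were tried as alternatives. The fit was tested on simulated data. Any of the 9 subunits could be named in any class, for diet all 9 in EXC and elsewhere the one of smallest p (Gria4 in CA3 was added after its p was seen), and of the partners at most the 4 largest called differences of a pair. A gene of the neuronal reference list is not reported here and was left out of its values. The subunits, lists and rules were chosen with earlier results of these data known.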

Additional observations from a re-analysis of the deposited data

How the results depend on the processing

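Of the called differences between classes, 779 values recomputed under another setting kept direction and call, 34 kept direction only and 6 changed sign. The sign changes were Gria1 in ODC against OPC, at -1.51 with high doublet scores out, -2.45 with the subunit genes in the clustering and -1.58 at doubled resolution, Gria1 in DG-M against CA1 at doubled resolution (0.0083), the Grik5 promoter in DG-M against CA1 with a 2000 bp window (-0.38) and Gria1 accessibility in DG-M against CA3 over the gene body (-0.14). The causes were not tested. Uncalled differences gave 514 alternative values, 80 of the other sign and 43 past the threshold. DESeq2 called 2046 genes in CA3 against CA1, 692 in INH-CGE against INH-MGE and 0 between diets in INH and in OPC. At doubled resolution 5 subunits were called in DG-M against CA1 and 3 against CA3, with the share of all genes called not given. DG-M then held 236 to 347 nuclei a library in place of 389 to 524, and CA1 90 to 116 in place of 187 to 226.

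Accessibility over the whole gene body called 4324 genes and 7 subunits in CA3 against CA1, 8524 and 7 in DG-M against CA1, 8085 and 5 in DG-M against CA3, 8791 and 6 in DG-i against DG-M, 7856 and 9 in INH against EXC, and 624 and 2 in INH-CGE against INH-MGE, where the 2000 bp window called 119 genes. By promoter, the genes called in the same order were 1353, 3217, 3273, 4984, 4581 and 74, so calls rose over all genes. The shares of genes called over the gene body are not given, and these subunit counts are not read as a result about the subunits. With each library left out in turn, subunit promoters called ranged from 0 to 1 in CA3 against CA1 (0 without HF1), 2 to 3 in DG-M against CA1 (lowest without MF2 or HF1) and 1 to 3 in DG-i against DG-M (lowest without MF2 or HF1), and genes from 26 to 59 in INH-CGE against INH-MGE (lowest without MF1). The shares of all promoters called in these fits are not given. A loss of calls common to all promoters therefore cannot be told apart from one particular to the subunits.

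Between diets no subunit was called under any setting. Without the low-count filter the genes called were 6 in EXC, 10 in CA1, 10 in CA3, 8 in DG-M, 6 in DG-i, 12 in INH and 10 in AST. A library left out leaves a diet with a lone sample, assumed to vary like the others, and genes called then ranged from 0 to 14 in EXC, 1 to 11 in CA1, 0 to 17 in CA3, 4 to 11 in DG-M, 0 to 7 in DG-i, 2 to 20 in INH, 3 to 7 in AST and 1 to 10 in OPC, and from 0 to 79 for promoters in EXC (highest without MF2). The EXC log2 differences then ranged from -0.070 to 0.34 for Gria1, -0.18 to 0.37 for Grik1, -0.064 to 0.35 for Grik3, -0.13 to 0.50 for Grik4 and -0.11 to 0.065 for Grik5, and that of Gria3 in AST from -0.81 to 0.25. Grik1 in EXC was -0.17 with high doublet scores out and -0.056 with the subunit genes in the clustering. At doubled resolution Grik5 in EXC was 0.038 and Grik1 in CA1 0.15.

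Libraries of both diets carry the numbers 1 and 2, which the labels do not tie to a shared litter or day. Deviations of same-numbered libraries from their diet mean correlated at 0.17 to 0.53 over genes in the 8 classes. With the number as a replicate block, 1 gene was called in EXC, 6 in CA1, 27 in CA3, 11 in DG-M, 5 in DG-i, 13 in INH, 18 in AST and 4 in OPC, with 3 promoters in EXC and 0 subunits in any class. The SE of the EXC differences was then 0.0700 to 0.206, against 0.167 to 0.329 without the block, so the width of their intervals rests on that choice.

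With 2 libraries a diet, wide intervals leave diet differences in single subunits undecided, and rare classes and transcripts such as Grik3 in CA1 or AST rest on few UMIs. Cell classes were rebuilt from the RNA, so class differences and class borders are not independent.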
